A study of Mus musculus with 10 samples.

Results

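The Sprouty and Spred genes encode intracellular inhibitors of receptor tyrosine kinase signalling, and Etv1, Etv4 and Etv5 encode the Pea3 group of Ets transcription factors. In many tissues fibroblast growth factor (FGF) binds an FGF receptor, the Ras, Raf, MEK and ERK kinases are activated, and ERK signalling switches on Sprouty, Spred and Pea3 genes, so that their messenger RNA (mRNA) is commonly read as an output of the pathway and the Sprouty and Spred proteins damp the signal that produced them. In mouse embryonic stem cells (ESCs) the main FGF made by the cells is Fgf4, its main receptor is Fgfr1, and ERK signalling moves ESCs out of the ground state of pluripotency. The genes described here are Spry1, Spry2, Spry4, Spred1, Spred2, Etv1, Etv4, Etv5, Fgf4 and Fgfr1, 10 of the 20206 genes in the table, each taken as the row whose Ensembl identifier carries that symbol. No symbol had more than 1 row, and the annotated genes that overlap Fgfr1, Spry1 and Spry4 have no row in it.

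The study asked whether a maternal diet low in protein around conception leaves a mark on ESCs derived from the blastocysts. C57BL/6 females received a normal protein diet (NPD, 18% casein) or a low protein diet (LPD, 9% casein) from mating until blastocysts were collected on embryonic day 3.5. ESC lines were derived from single blastocysts, and the paper reports that a smaller share of LPD than of NPD blastocysts yielded a line. The lines used each came from a different mother. Poly(A) RNA was sequenced from 5 LPD lines (1, 4, 6, 20 and 40) and 5 NPD lines (8, 15, 21, 36 and 51), all labelled male, at passages 9 to 12 in medium free of fibroblasts. The ESCs of both groups grew in the same medium with leukaemia inhibitory factor and serum replacement, and each line descends from 1 embryo. From immunoblots of its ESC lines, the paper reports less phosphorylated, that is active, ERK in LPD than in NPD lines. Total ERK protein was similar between the diets. The mRNA values described here do not measure ERK activity.

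The values are normalised estimated counts, that is, estimated numbers of sequenced fragments per gene scaled between lines. Depth was recovered from the size of the smallest step between low values, and lay between 20445790 and 23170457 read equivalents in the NPD lines and between 5848195 (line 4) and 24124741 (line 20) in the LPD lines, with LPD lines 6 and 40 at 12356481 and 11251902. All 9 listed markers of undifferentiated ESCs, Pou5f1, Sox2 and Nanog among them, were detected, and none had an unadjusted p under 0.05 between diets. The sum over 8 fibroblast markers ranged from 316 to 3267 in LPD and from 411 to 5587 in NPD lines, with 0 of 6 tested at that level, 2 (Dcn and Postn) too low to test, and Lum at 0 in some lines of both diets. Col1a2 was 1121 in LPD line 6 and 754, 1442 and 358 in NPD lines 8, 15 and 36, against 46.6 to 97.8 elsewhere. Lum reached 112 in NPD line 15, while Col6a3 was highest among LPD lines in line 4 (134). Among markers of primed epiblast Otx2 had a log2 fold change of −0.85 ± 0.352 (SE), and the other 4 tested had larger p-values. For Otx2 the unadjusted limma p was 0.031, the adjusted limma p 0.952 and the exact permutation p 0.0714. Its ranges overlapped, from 90.3 to 362 in LPD and from 186 to 515 in NPD lines. All 7 primitive endoderm markers had a log2 fold change above 0, though the means of Gata6 and Dab2 were nearly equal, and they summed to 645 to 4312 in LPD and 448 to 4941 in NPD lines, and 7 trophectoderm markers, of which Elf5 was too low to test, summed to 3104 to 10150 and 3072 to 6197, with no tested gene of either list at an unadjusted p under 0.05. What part these markers have in the results was not tested. The Y-linked gene Ddx3y stood at 7.70 in NPD line 15 and 174 in LPD line 4, against 1110 to 1493 in the other 8 lines, and the median of 334 X-linked genes was 0.49 above the median line on the log2 scale in NPD line 15 but 0.00 in LPD line 4. In NPD line 15 both measures go against the male label, whereas in LPD line 4 only Ddx3y was low. Results of the members and listed pathway genes that rest on these libraries are also given without them.

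The upstream promoter sequences of 3 of the genes are shown because they stand for the ligand (Fgf4), for a Sprouty gene with a lower p in the diet comparison (Spry2) and for a Spred gene that varied with Etv1 and Etv4 across lines (Spred1). Each is the 120 bases before the RefSeq transcription start (GRCm38.p6), written 5′ to 3′ on the gene's strand, with capitals marking GGGCGG or its complement CCGCCC, a box bound by Sp and Klf factors, and CCAAT or its complement ATTGG.
Fgf4, chr7:144861266-144861385, plus strand: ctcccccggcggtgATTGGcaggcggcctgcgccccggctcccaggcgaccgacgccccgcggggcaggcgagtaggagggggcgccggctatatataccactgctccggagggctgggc
Spry2, chr14:105896820-105896939, minus strand: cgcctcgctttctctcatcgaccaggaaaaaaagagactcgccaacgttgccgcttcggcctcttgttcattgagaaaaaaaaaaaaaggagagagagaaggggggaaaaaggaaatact
Spred1, chr2:117120951-117121070, plus strand: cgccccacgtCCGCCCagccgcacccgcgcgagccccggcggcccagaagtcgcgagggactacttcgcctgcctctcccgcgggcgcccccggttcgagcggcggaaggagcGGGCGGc
The Fgf4 stretch is rich in G and C with a TATA-like run close to the start, and the Spry2 stretch carries long runs of A and G with none of the marked boxes. In the full window of 300 bases, which runs from 250 before to 50 after the start, GC content was 69.7% for Fgf4, 62.7% for Spry2 and 72.3% for Spred1, against a median of 52.7% over 32851 promoters.

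The search covered 9 windows of 7 of the genes (Spry1, Spry2, Spred1, Spred2, Etv1, Etv5 and Fgf4; Spry4, Etv4 and Fgfr1 were not searched), on both strands. GGGCGG was found in windows of 5 of the 7 genes, namely Spry1, Spred1, Spred2, Etv5 and Fgf4, and occurs in 35.7% of all promoters. CCAAT was found for Spry1, Spred2, Etv5 and Fgf4, and occurs in 37.4% of all promoters. CCGGAAG, the core that Ets factors bind with its flank, was in none of the 9 windows and in 8.86% of all promoters. The capicua octamers TGAATGAA and TGAATGGA, which share all letters but 1, the AP-1 letters TGACTCA and the cAMP response element TGACGTCA were also in none, and are in 1.30%, 1.21%, 5.20% and 1.79% of all promoters. A match is only a description of the letters, and its absence says only that these letters are not in these windows.

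Fgf4, the FGF that ESCs secrete, lies on chromosome 7 (GRCm38, 144847367 to 144865243). Its normalised estimated counts were 4317, 3794, 3100, 3161 and 4539 in LPD lines 1, 4, 6, 20 and 40, and 4089, 5717, 5174, 3778 and 3821 in NPD lines 8, 15, 21, 36 and 51. The ranges overlapped, with NPD lines 15 and 21 above every LPD line and LPD lines 6 and 20 below every NPD line. LPD lines averaged 3782 ± 654 and NPD lines 4516 ± 878 (SD, n = 5 each), which is −0.25 as a log2 fold change, LPD over NPD (95% confidence interval −0.57 to 0.06). Fgfr1 on chromosome 8 (25513654 to 25575718), the receptor through which most of the Fgf4 signal reaches ESCs, averaged 2076 ± 283 in LPD lines and 2315 ± 359 in NPD lines (SD, n = 5 each), or −0.15 on the log2 scale (95% confidence interval −0.42 to 0.11). NPD lines 8 and 15, at 2621 and 2752, lay above every LPD line, and LPD line 40, at 1657, was the lowest line. Without NPD line 15, the highest line for both genes, the log2 fold changes were −0.16 for Fgf4 and −0.09 for Fgfr1. They were −0.17 and −0.14 without both NPD line 15 and LPD line 4, and Fgfr1 was −0.08 without LPD line 40. Neither the ligand nor the receptor differed between diets beyond the spread of the lines (limma, adjusted p = 0.994 for both). In RNA from a whole culture, fewer cells that express a gene and less RNA per cell cannot be told apart.

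Spry4 showed the widest separation of diets among the 10 genes. Spry4, on chromosome 18 (38586247 to 38601415), encodes a Sprouty protein that restrains signalling from receptor kinases to ERK, and its normalised estimated counts were 2124, 3794, 3447, 5159 and 2090 in LPD lines 1, 4, 6, 20 and 40, and 1869, 1338, 1632, 1715 and 2505 in NPD lines 8, 15, 21, 36 and 51. LPD lines 4, 6 and 20 lay above every NPD line, LPD lines 1 and 40 lay within the NPD range, and only NPD line 51 was above the lowest LPD line. LPD lines averaged 3323 ± 1281 against 1812 ± 433 for NPD lines (SD, n = 5 each), and the difference on the log2 scale was 0.82 ± 0.240 (SE; 95% confidence interval 0.30 to 1.34), a 1.76-fold ratio. The unadjusted limma p was 0.00485, rank 103 of the 14354 genes tested, and the exact permutation test over all assignments of the lines to 2 groups of 5 gave p = 0.0317 (two-sided, smallest possible 0.00794). Adjusted over all genes the limma p was 0.665, so the difference did not pass the threshold of 0.1. The difference was 0.64 when LPD line 20, the highest, was left out, 0.65 when NPD line 15 and LPD line 4 both were, and 0.78 with library depth as a covariate.

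Spry2, on chromosome 14 (105891947 to 105896819), whose promoter is shown above, has the highest level per kilobase of the 3 Sprouty genes. Its values were 3238, 3236, 2598, 3340 and 2537 in LPD lines 1, 4, 6, 20 and 40, and 2643, 2009, 2125, 2457 and 2726 in NPD lines 8, 15, 21, 36 and 51. LPD lines 1, 4 and 20 lay above every NPD line, and the other LPD lines lay inside the NPD range. The log2 fold change was 0.32 ± 0.115 (SE; 95% confidence interval 0.07 to 0.57), with an unadjusted limma p of 0.0154, an adjusted limma p of 0.850 and an exact permutation p of 0.0556. With NPD line 15 and LPD line 4 both left out it was 0.23 and its unadjusted limma p was 0.0925. Spry1, on chromosome 3 (37639947 to 37644598), was the low member of the family, averaging 310 ± 92.6 in LPD lines and 287 ± 54.9 in NPD lines (SD, n = 5 each). LPD line 20, at 473, stood above the other 9 lines, which ranged from 195 to 334, and the log2 fold change of 0.09 (95% confidence interval −0.34 to 0.52) turned to −0.07 without that line.

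The Spred genes encode membrane-bound relatives of Sprouty that bring neurofibromin to Ras. Spred1, on chromosome 2 (117121374 to 117182279), was measured at 1704, 1961, 2332, 3163 and 2008 in LPD lines 1, 4, 6, 20 and 40, and at 2242, 1715, 1633, 1807 and 2051 in NPD lines 8, 15, 21, 36 and 51. LPD lines 6 and 20 were the only lines above the NPD range, and the log2 fold change of 0.22 (95% confidence interval −0.11 to 0.55) fell to 0.08 without LPD line 20. Spred2, on chromosome 11 (19924375 to 20024026), had nearly equal means, 2778 ± 719 for LPD and 2762 ± 363 for NPD lines (SD, n = 5 each). Its LPD lines ran from 2028 in line 40 to 3899 in line 20 and so enclosed the whole NPD range of 2328 to 3092. The log2 fold change was −0.02 (95% confidence interval −0.36 to 0.32), and neither Spred gene passed the test (limma, adjusted p = 0.994 and 0.997).

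**Figure D1:**
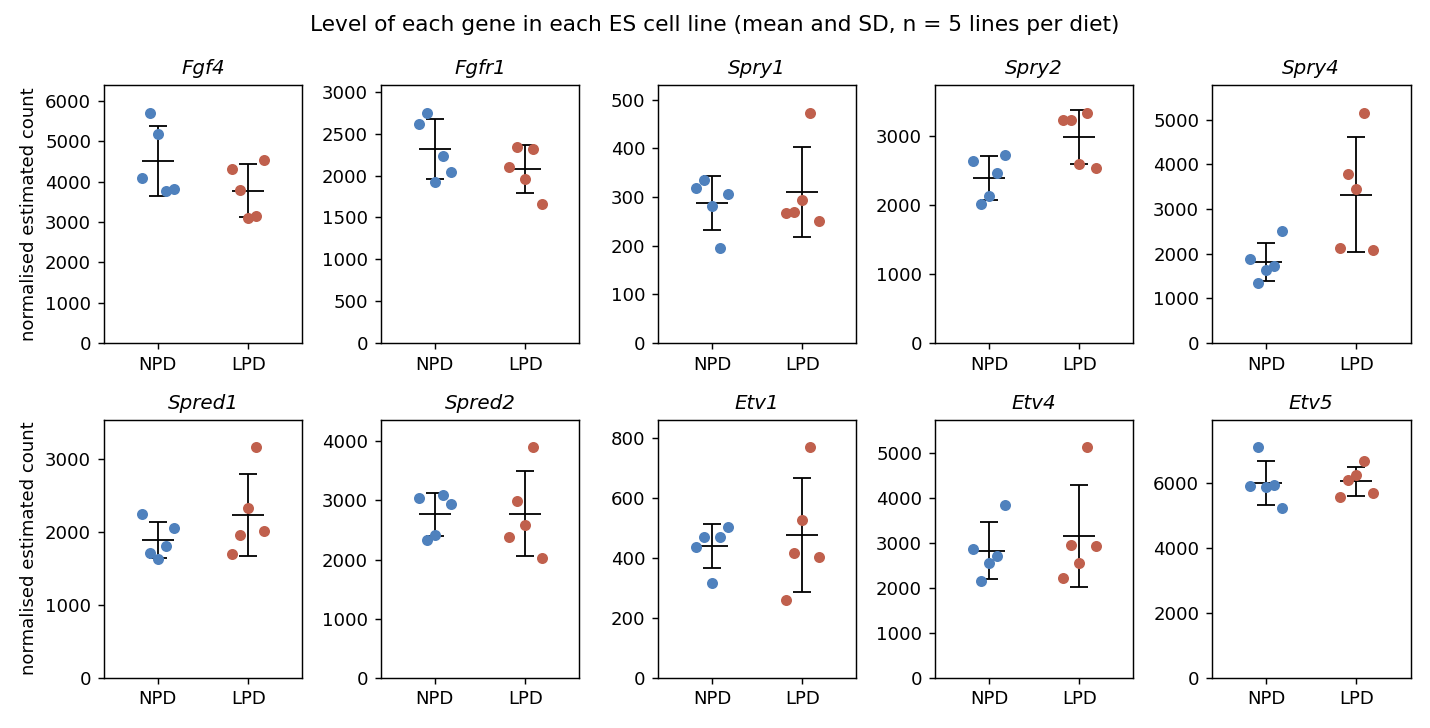
Normalised estimated counts (vertical axes, each from 0) of the 10 genes in the 5 NPD and 5 LPD lines, 1 point a line, with mean and SD. LPD lines 4, 6 and 20 sit above all NPD lines for Spry4, while the diets overlap almost fully for Spred2, Etv1, Etv4 and Etv5.

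Etv1, Etv4 and Etv5 are transcription factors whose genes follow FGF and ERK activity in many embryonic tissues. Etv5, on chromosome 16 (22381309 to 22439719), was 5574, 6097, 6229, 6684 and 5672 in LPD lines 1, 4, 6, 20 and 40 and 5899, 7091, 5876, 5939 and 5212 in NPD lines 8, 15, 21, 36 and 51. It was the steadiest of the 10 genes, with an SD over lines of 0.13 on the log2 scale, and 8.59% of the genes tested had a smaller one, and its log2 fold change was 0.02 (95% confidence interval −0.18 to 0.21). Etv4, on chromosome 11 (101769742 to 101785371), ranged from 2222 to 2946 in LPD lines other than line 20, which reached 5127, and from 2152 to 3849 in NPD lines. Etv1, on chromosome 12 (38779380 to 38870484), ranged from 260 in LPD line 1 to 768 in LPD line 20, and its NPD lines, from 314 to 504, all lay within those limits. The log2 fold changes were 0.12 (95% confidence interval −0.32 to 0.57) for Etv4 and 0.04 (95% confidence interval −0.48 to 0.56) for Etv1, and both turned negative, to −0.07 and −0.15, without LPD line 20. For none of the 3 factors did the diets differ beyond the spread of the lines (limma, adjusted p of 0.994 for Etv4 and 0.997 for Etv1 and Etv5).

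Counted together, 7 of the 10 genes had a log2 fold change above 0 and 3 (Fgf4, Fgfr1 and Spred2) one below 0, and the median log2 fold change was 0.07 against 0.00 over all 14354 genes tested. None of the 10 passed an adjusted p of 0.1 (limma), as none did in the whole table (0.0%). Spry2 and Spry4 had an unadjusted limma p under 0.05, both higher in LPD, where 2.84% of all genes were called higher and 2.18% lower at that level, 5.02% in all. No member had LPD and NPD lines that did not overlap, against 0.523% of genes with every LPD line above every NPD line and 0.495% with every LPD line below.

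**Figure D2:**
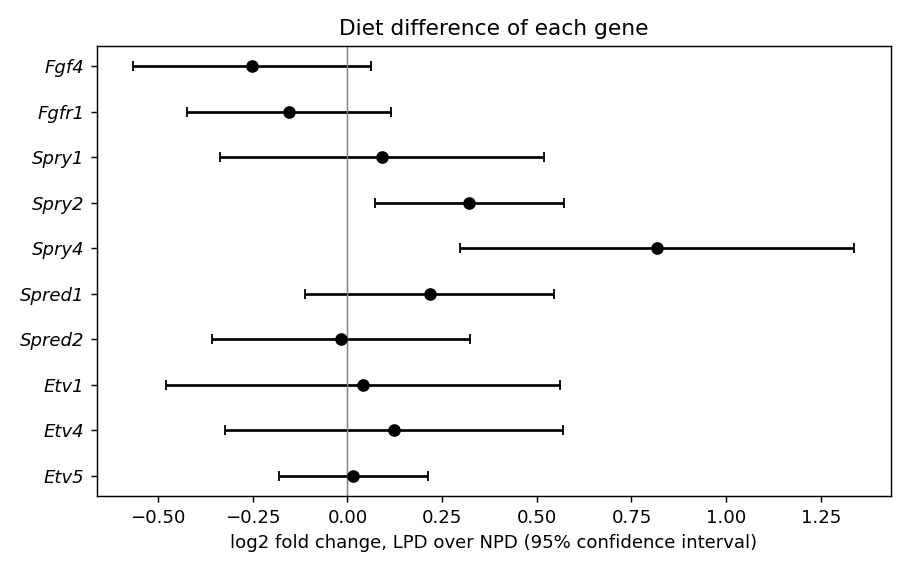
Log2 fold change, LPD over NPD, of each gene with its 95% confidence interval (limma, 5 lines per diet). The intervals of Spry2 (0.07 to 0.57) and Spry4 (0.30 to 1.34) lie above 0 and the other 8 include it.

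Spry4 was compared with the other genes line by line, as a description, since it was picked for its large difference. The log2 ratio of Spry4 to Etv4 averaged 0.05 ± 0.371 over LPD lines and −0.64 ± 0.029 over NPD lines (SD, n = 5 each), each of the 5 LPD lines exceeding each NPD line. The ratio to Spred2 was likewise higher in all 5 LPD lines, 0.21 ± 0.255 against −0.63 ± 0.249. The ratio to Fgf4 was −0.26 ± 0.789 in LPD and −1.33 ± 0.569 in NPD, with 3 LPD lines above every NPD line. For the ratios to Fgfr1, Spry1, Spry2, Spred1, Etv1 and Etv5, 3 or 4 LPD lines lay above every NPD line. Each of these ratios contains the difference of Spry4 itself, and how often such ratios separate over all genes was not examined. The smallest difference between the diets, 0.50, was in the Spry4 to Spry2 ratio, since Spry2 had the next highest log2 fold change of the members. That value does not show that Spry2 and Spry4 moved together across lines. The Spry4 to Spry2 ratio had an SD of 0.508 over LPD lines, wider than for Spred2 or Etv4.

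Levels of different genes were compared per kilobase of the longest annotated transcript, as normalised estimated counts per kilobase averaged over the 10 lines. Etv5 was highest at 1516 ± 137 (SD), followed by Fgf4 at 1369 ± 273, Spry2 at 1289 ± 220 and Etv4 at 1248 ± 370, and each neighbouring pair of these 4 differed by less than the larger of their SDs. Spred2 at 623 ± 121, Spry4 at 540 ± 253, Fgfr1 at 436 ± 65.4 and Spred1 at 343 ± 74.9 came next, the spread of Spry4 overlapping those of the other 3 and that of Fgfr1 overlapping Spred1, and Spry1 at 108 ± 26.2 and Etv1 at 69.5 ± 20.8 were the lowest. Per kilobase of the mean transcript length instead, Etv5 at 3345 and Etv4 at 2748 came before Fgf4 at 2424, and Spry4 fell behind Fgfr1 (974) and, by less than its SD, Spred1 (553), and Etv1 at 189 came before Spry1 at 116. The 2 lowest genes rested on at least 93.2 read equivalents (Spry1) and 145 (Etv1) in the shallowest library, and each of the other 8 on at least 681.

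A single line set the top of most of the genes. LPD line 20 was the highest of the 10 lines for 7 genes, Spry1, Spry2, Spry4, Spred1, Spred2, Etv1 and Etv4, and lay above the mean of the lines for 9. NPD line 15, the line with the lowest Ddx3y, was the highest for Fgf4, Fgfr1 and Etv5 and the lowest for Spry2, Spry4 and Etv4. LPD lines 1 and 40 lay above the mean for 2 genes each and NPD line 21 for 1, while NPD line 51 did so for 7. Spry4 varied most, with an SD over the lines of 0.61 on the log2 scale, larger than in 85.1% of the genes tested, while the median SD was 0.28 for the 10 genes and 0.22 for the 10455 genes whose mean reached 100.

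**Figure D3:**
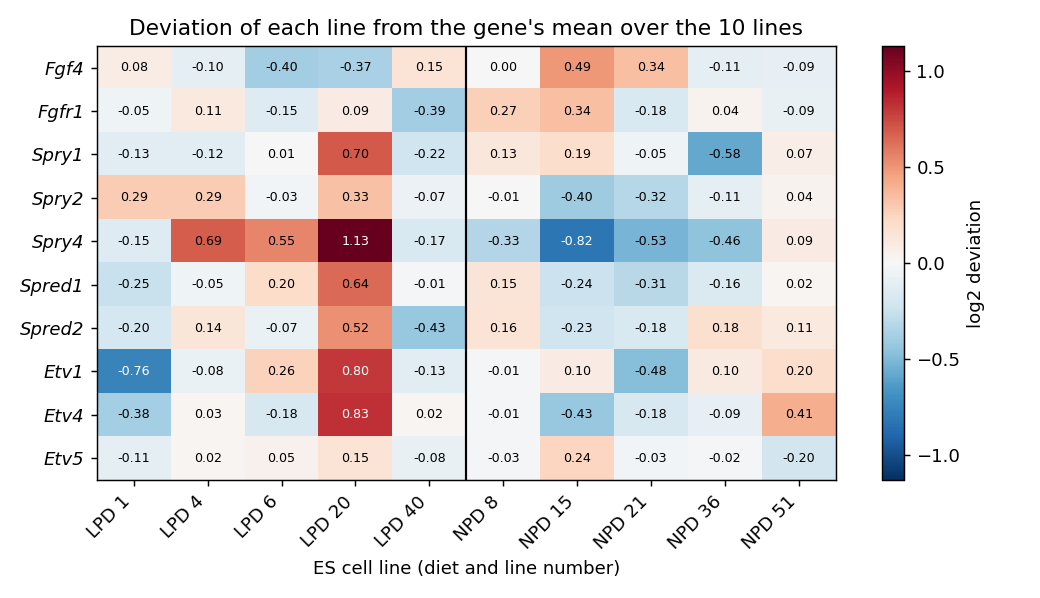
Log2 deviation of each ESC line (columns, diets divided by the vertical line) from the mean of the 10 lines for each gene (rows). The column of LPD line 20 is red for all genes but Fgf4, and the column of NPD line 15 is blue for Spry2, Spry4 and Etv4 and red for Fgf4, Fgfr1 and Etv5.

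Across the 10 lines, most pairs of Sprouty, Spred and Etv genes had a positive correlation and most pairs of Fgf4 with them a negative one. Pearson's r was positive for 26 of the 28 pairs among the 8 feedback genes, with a median of 0.54, and negative for 7 of the 8 pairs of Fgf4 with them, with a median of −0.63. LPD line 20 carried much of this, since without it 18 of the 28 pairs were positive with a median of 0.26, and 6 of the 8 Fgf4 pairs were negative with a median of −0.49. With any other single line left out, 25 to 28 of the 28 pairs were positive, with medians of 0.50 to 0.63. Fgfr1 had a median r of 0.18 with the same 8 genes. Of all 45 pairs, 33 had a positive and 12 a negative r. The share of positive pairs over all genes was not examined. Against all 14353 other genes the pairs ranked widely. For Spry2, 0.627% of genes had a higher r than Spry4, 34.9% than Etv1 and 72.5% than Etv5. For Fgf4 that share ran from 44.1% (Etv5) to 99.3% (Spry4). In the permutation test 14 pairs had an unadjusted p under 0.05, and no pair had an adjusted p under 0.05 over the 45 pairs. The genes of a line share its library, so the depth and composition of each library enter every pair.

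The pair with the largest r in size was Fgf4 and Spry4, with Pearson's r = −0.83 (permutation p = 0.0033) and Spearman's rho = −0.73 (permutation p = 0.0203). Benjamini-Hochberg adjustment over the 45 pairs gave 0.0720 for r and 0.196 for rho. NPD line 15 held the highest Fgf4 and the lowest Spry4, and LPD lines 6 and 20, with the lowest Fgf4, were high in Spry4. The correlation was −0.73 without the 2 lines farthest from the median of Fgf4, between −0.90 and −0.77 whichever single line was left out (−0.77 without NPD line 15), and −0.79 for the deviations from the diet means.

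Spred1 varied with Etv1, Etv4 and Spry4, and these relations leaned on LPD line 20. For Spred1 and Etv1 Pearson's r was 0.82 (permutation p = 0.00455, adjusted 0.0720) and rho 0.76 (permutation p = 0.0149, adjusted 0.196), with r = 0.52 without the 2 farthest lines and 0.63 without LPD line 20. For Spred1 and Etv4 r was 0.81 (permutation p = 0.0095, adjusted 0.0720) and rho 0.68 (permutation p = 0.0349, adjusted 0.196), with r = 0.49 without the 2 farthest lines. Spry4 and Spred1 had r = 0.79 (permutation p = 0.00559, adjusted 0.0720) and rho = 0.66 (permutation p = 0.0435, adjusted 0.218), with r = 0.71 without the 2 farthest lines and 0.59 without LPD line 20. Spry2 and Spry4 had r = 0.78 (permutation p = 0.00761, adjusted 0.0720) and rho = 0.85 (permutation p = 0.00284, adjusted 0.128), with r = 0.59 without the 2 farthest lines. Fgf4 and Spred1 had r = −0.76 (permutation p = 0.0096, adjusted 0.0720) and rho = −0.70 (permutation p = 0.0298, adjusted 0.196), with r = −0.69 without the 2 farthest lines. Etv5 stood apart from the other 2 Pea3 genes, with r = −0.05 to Etv4 and 0.46 to Etv1, whereas Etv1 and Etv4 had r = 0.72.

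**Figure D4:**
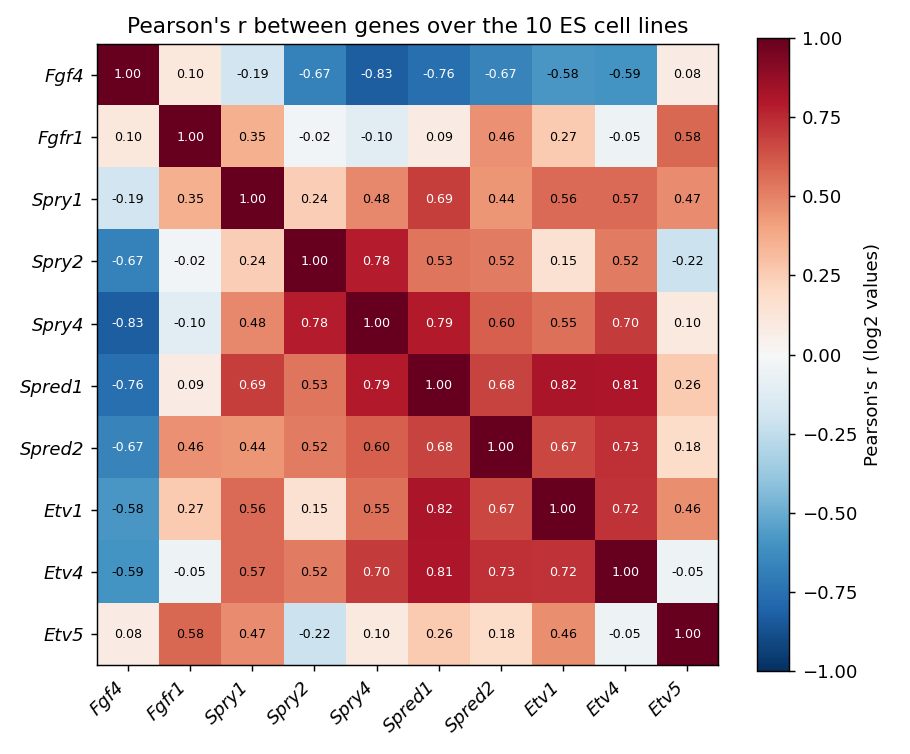
Pearson's r between log2 values of each pair of genes over the 10 ESC lines, from −1 (blue) to 1 (red). Fgf4 is blue against Spry4 (−0.83) and Spred1 (−0.76), and the block of Spry, Spred, Etv1 and Etv4 genes is mostly red.

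Among the other 14344 genes tested, those whose log2 values followed each member most closely over the 10 lines were looked up, as a description of likeness only. Spry4 was followed by Irf2bpl (r = 0.95) and by Dusp6 (r = 0.94), a phosphatase that removes the activating phosphates of ERK. Spry2 was followed by Ppm1d (0.93) and Csnk1e (0.90), Spry1 by Fth1 (0.90) and Trpa1 (0.90), Spred1 by Plk3 (0.95) and Atf6 (0.93), and Spred2 by Dhx33 (0.96) and Foxh1 (0.96). The nearest genes were Vwa1 (0.95) and Btbd9 (0.94) for Etv1, Daxx (0.96) and Ppp1r8 (0.95) for Etv4, and Map2k4 (0.92) and Maoa (0.91) for Etv5. For Fgf4 they were Gm4779 (0.94) and Nampt (0.94), and for Fgfr1 Slc5a1 (0.96) and Brwd3 (0.96). Each is the top of 14344 values over 10 lines, and no test was made of them.

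The remaining genes of the pathway were taken from lists. Of 8 other feedback genes of the same group, 5 were higher and 3 lower in LPD, and 3 of the 5 (Dusp4, Dusp5 and Dusp6) had an unadjusted p under 0.05. Over all genes tested 2.84% were higher at that level, and part of the lists was chosen with the results of these lines known. Dusp6, the gene most like Spry4 but one, was 2189, 3156, 2630, 5237 and 1666 in LPD lines 1, 4, 6, 20 and 40, and 2061, 1096, 1138, 1822 and 2195 in NPD lines 8, 15, 21, 36 and 51. Lines 4, 6 and 20 were again the LPD lines above every NPD line, and the log2 fold change was 0.79 ± 0.285 (SE; limma adjusted p = 0.860, exact permutation p = 0.0714). Dusp5, an ERK phosphatase of the nucleus, had 1264, 1632, 1847, 1871 and 446 in the LPD lines in the same order and 347 to 599 in NPD lines, which is 1.42 ± 0.336 on the log2 scale (SE; limma adjusted p = 0.440, exact permutation p = 0.0317). LPD line 40 alone lay within the NPD range. Leaving out each line in turn gave 1.27 to 1.79 for Dusp5, with a limma adjusted p of 0.000843 without LPD line 40 and up to 0.927 otherwise, and the p fell under 0.1 in that setting only, where the line removed is the one without the difference. Dusp4, also a nuclear phosphatase, was higher in all 5 LPD lines (761 to 1868) than in every NPD line (345 to 761), with a log2 fold change of 0.72 ± 0.272 (SE; limma adjusted p = 0.899, exact permutation p = 0.00794, the smallest possible), although LPD line 4 and NPD line 8 differed only in the decimals. Without NPD line 15 its log2 fold change was 0.48 and its unadjusted limma p 0.0556. No other single line, when left out, took that p above 0.05.

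Of 10 early genes that ERK induces, 7 were higher and 3 lower in LPD, with a median log2 fold change of 0.92, and 4 had an unadjusted limma p under 0.05, all higher. The share of all genes tested that were higher at that level was 2.84%. Part of the lists was chosen with the results of these lines known, so a count above that share is no test. Phlda1 was 1303, 2023, 2486, 2343 and 655 in LPD lines 1, 4, 6, 20 and 40 and 376 to 912 in NPD lines, which is 1.48 ± 0.345 on the log2 scale (SE; limma adjusted p = 0.436, exact permutation p = 0.0238). Fosl1, a component of AP-1, was 1.21 ± 0.354 higher on that scale (limma adjusted p = 0.665), and Ier2 0.63 ± 0.225 (limma adjusted p = 0.845). Egr2 was 329, 294, 12.3, 10.0 and 0 in LPD lines 1, 4, 6, 20 and 40 and 0.573 to 5.00 in NPD lines, so its fitted difference of 3.28 ± 1.34 rested on LPD lines 1 and 4 and its exact permutation p was 0.0873. LPD line 40 was inside the NPD range for Dusp5, Dusp6, Ier2, Phlda1 and Fosl1 (36.4, NPD lines 22.6 to 41.0). So were LPD line 1 for Dusp6 and LPD line 6 for Ier2. LPD line 40 was also inside the NPD range for Trib1, which was listed for the turnover of Pea3 proteins (log2 fold change 0.66 ± 0.200, limma adjusted p = 0.681). As with Dusp5, Phlda1 and Trib1 ranged from 1.32 to 1.80 and from 0.58 to 0.86 over the lines left out in turn, and passed an adjusted p of 0.1 only without LPD line 40 (limma adjusted p = 0.0219 and 0.0341). These low values are no support for a difference, since that line is the one that lacked it. Trib1 was 1 of 6 genes listed for that turnover, of which 2 were higher and 4 lower in LPD. With LPD line 4 and NPD line 15 both left out, the log2 fold changes of Dusp4, Dusp5, Dusp6, Phlda1 and Trib1 were 0.61, 1.28, 0.60, 1.25 and 0.62, and those of Ier2 and Egr2 were 0.43 and 2.29. Dusp6, Ier2 and Egr2 then no longer had an unadjusted p under 0.05, which left 2 of the 8 feedback genes (Dusp4 and Dusp5) and 2 of the 10 early genes (Fosl1 and Phlda1) at that level. Without these lines 2.47% of all genes tested were higher at that level.

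**Figure D5:**
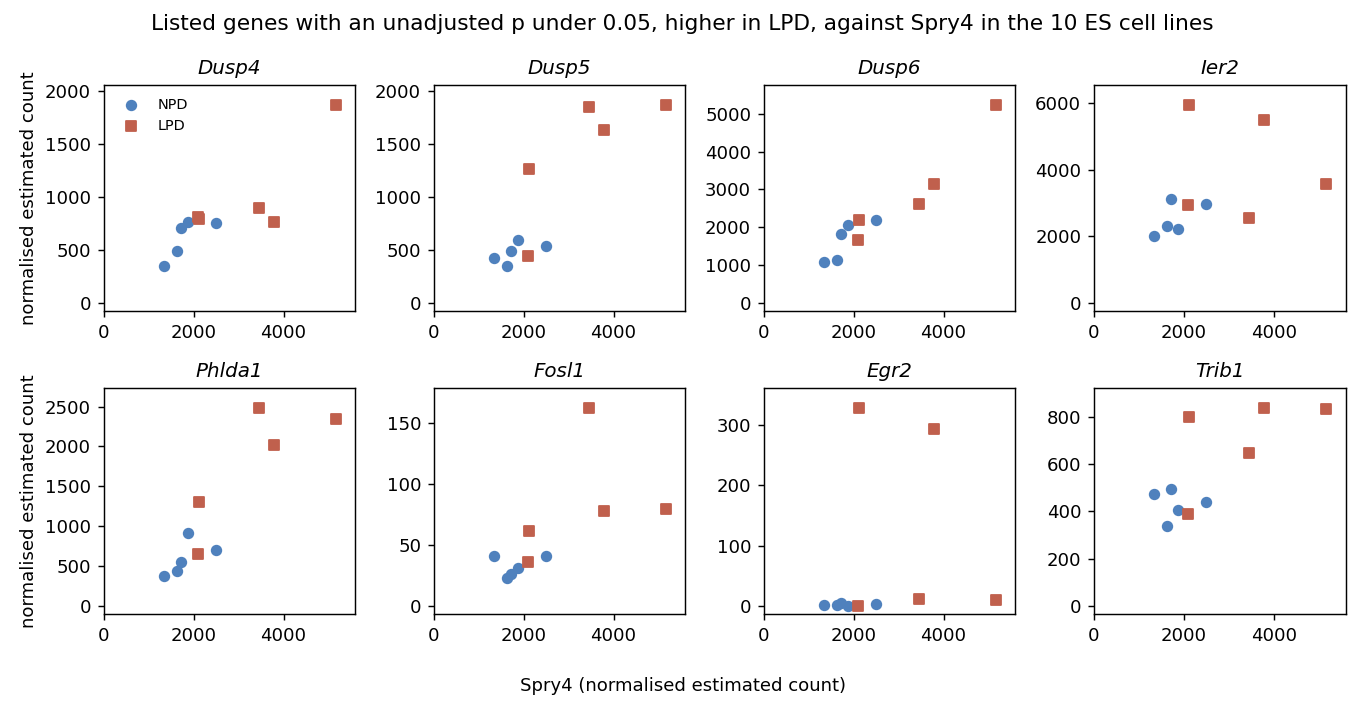
Normalised estimated counts of 8 listed genes that were higher in LPD at an unadjusted limma p under 0.05 (vertical axes) against those of Spry4 (horizontal axes), with 1 point per line. Dusp6 follows Spry4 across the 10 lines (r = 0.94), while Egr2 is high only in LPD lines 1 and 4.

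Other parts of the pathway gave few low p-values. Of the 11 FGF ligands with a mean of at least 10, 3 were higher and 8 lower in LPD, none at an unadjusted p under 0.05, and those other than Fgf4 had means under 100 in both diets (Fgf1, Fgf2, Fgf3, Fgf5, Fgf7, Fgf10, Fgf11, Fgf13, Fgf15 and Fgf17). Of 11 receptors and co-receptors tested, 6 were higher and 5 lower, none at that level. Fgfr2 was 264 ± 35.5 in LPD and 330 ± 175 in NPD, Fgfr3 166 ± 41.5 and 156 ± 73.2, and Fgfr4 128 ± 37.3 and 107 ± 32.1 (SD, n = 5). Sdc4, a heparan sulphate carrier, came nearest with 3553 ± 324 in LPD and 2717 ± 966 in NPD (SD, n = 5). With LPD line 4 and NPD line 15 both left out Sdc4 was 0.63 higher on the log2 scale, against 0.47 with all lines, and had an unadjusted limma p of 0.0197 (adjusted 0.998). The other receptor-side genes tested (Fgfrl1, Klb, Flrt2, Flrt3, Sdc1 and Gpc4) had larger p-values.

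Among 11 receptor adaptors only Plcg1, a phospholipase that FGF receptors bind, had an unadjusted p under 0.05, with a log2 fold change of −0.27 ± 0.111 (SE; limma adjusted p = 0.953), which was −0.23 and no longer at that level without LPD line 4 and NPD line 15. Of 7 partners of Sprouty and Spred, only Kit, a receptor kinase, did so (−0.38 ± 0.137, SE; limma adjusted p = 0.860). Over all genes tested 2.18% were lower at that level. None of the 11 genes of the core ERK cascade passed that level, the lowest p belonging to Ksr1 (−0.33 ± 0.191) and Map2k1 (−0.14 ± 0.0995). The same was true of the 3 genes of the capicua repressor complex, among them Cic (−0.04 ± 0.105) and Atxn1l (0.02 ± 0.197), and of the 15 other Ets factors tested, among them Etv2 (−0.85 ± 0.531) and Etv3 (0.14 ± 0.103), each ± SE. Spred3 was low, 72.9 ± 24.6 in LPD and 70.9 ± 11.4 in NPD (SD, n = 5). With all 10 lines, no gene of any list passed an adjusted p of 0.1 (limma), and part of these lists was chosen with the results of these lines known. The paper tested transcripts rather than genes, with the program sleuth. It lists a Phlda1 transcript among those at a false discovery rate under 0.1. Its immunoblots showed less active ERK in LPD lines, whereas several listed feedback and early genes had higher mRNA values in LPD here. How these mRNA values relate to ERK activity was not tested.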

How the data were processed

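The 10 libraries were quantified by the study with Salmon after trimming with cutadapt, against Ensembl mouse transcripts of GRCm38, and the submitters' processing notes also name sleuth 0.30.0. The deposited signal values are normalised estimated counts per gene, made by the authors, and the table's name credits DESeq2 with the scaling; how transcripts were summed to genes is not given in the sources used here. Low values were whole multiples of 1 read (tolerance 0.15) in 67.9 to 74.2% of cases per line, so reads were not recovered and no count test was run. The values were transformed to log2(value + 1), which understates changes of low genes, genes with a mean under 10 were dropped, and the remaining 14354 were fitted in limma 3.58.1 (R 4.3.3) with an intensity trend; p-values were adjusted by Benjamini-Hochberg and called under 0.1. Single genes were also tested by exact permutation over all assignments of the lines, and the 45 member pairs by permutation with 100000 resamples (scipy 1.17.1). Each line is a separate embryo with 1 library, so p-values of the diet comparison set the difference against the spread between lines. Embryo, culture and library cannot be told apart within that spread.

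The members and lists were chosen with earlier results of these data known. All 10 members were named, and from each list every gene with an unadjusted p under 0.05, or otherwise up to 2 with the smallest p; FGF ligands, FGF receptors and Sprouty or Spred relatives were named where tested, and the 2 genes most like each member. The scripts were tested on simulated data. Gene positions and lengths came from GENCODE M21 and promoters from RefSeq.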

Additional observations from a re-analysis of the deposited data

Results flagged for a closer look

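A value that stood far from the other 4 of its diet group, by Dixon's test at the critical value 0.71, was found in 8 of the 94 groups of 5 lines examined over the 10 members and the named genes of the lists. About 1 group in 20 is flagged by chance. Both member flags came from LPD line 20, with Etv4 at 5127 (other LPD lines 2222 to 2946) and Spry1 at 473 (250 to 293). Dusp4 in the same line was 1868, against 761 to 901. Fgf2 was 97.9 in LPD line 6 against 4.67 to 8.48 in the other LPD lines. In NPD line 15, Fgf7 was 43.1 against 5.36 to 8.93 and Sdc1 was 1080 against 512 to 533. LPD line 6 and NPD line 15 also had the highest Col1a2, a fibroblast marker, of their diets. Whether that bears on these values of Fgf2, Fgf7 and Sdc1 was not tested. Fgf1 was 148 in NPD line 36 against 37.4 to 56.3, and Spred3 was 90.6 in NPD line 21 against 63.1 to 69.3.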

How the results depend on the processing

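Every member kept an adjusted limma p above 0.1 under all alternatives, which were other pseudocounts, no filter, a mean of at least 100, 2 rescalings, no trend, robust and weighted fits, depth as a covariate, each line left out, and, chosen after seeing the data, LPD line 4 and NPD line 15 both left out. Spry4 ranged from 0.64 to 0.96 on the log2 scale and Spry2 from 0.23 to 0.38. The count of members higher at an unadjusted p under 0.05 was 2 throughout except 1 (Spry4) without those 2 lines. Genes at an adjusted p under 0.1 numbered 0, but 1 with array weights and 0 to 40 with a line left out, the 40 coming without LPD line 40, when Spry4 had an adjusted limma p of 0.223 and Dusp5, Phlda1 and Trib1 were among those called; line 40 lay within the NPD range for those 3 genes, and the cause was not tested. Rescaling to the same total turned the 408 higher and 313 lower calls at an unadjusted p under 0.05 into 295 and 439, and lowered the median gene by 0.03. Small differences changed sign: Spred2 was 0.039 with depth as a covariate, Etv1 −0.052 with array weights, and Etv5 −0.0189 with the same total and −0.0173 with quantile normalisation. With a line left out, Spry1 ran from −0.0705 to 0.16 (−0.0705 without LPD line 20, −0.04 without NPD line 36), Spred2 from −0.15 to 0.0865 (0.03 without LPD 1, 0.0865 without LPD 40, 0.02 without NPD 8, 0.03 without NPD 36 and 0.0069 without NPD 51), Etv1 from −0.15 to 0.24 (−0.02 without LPD 6, −0.15 without LPD 20, −0.07 without NPD 21), Etv4 from −0.0679 (without LPD 20) to 0.24, and Etv5 from −0.0339 (without NPD 51; −0.02 without LPD 20) to 0.0772. Pairs at an adjusted p under 0.05 rose from 0 to 3 on deviations from diet means (Spry4 with Spred2 and Etv4, and Spred1 with Etv1) and to 1 with the same total (Fgf4 and Spry4, r = −0.88). No paired analysis was possible because the diets share no line number. LPD line 4, at 5848195 read equivalents, limits the precision of low genes.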
